A study of Mus musculus with 16 samples.

Results

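The MHC genes and the antigen presentation machinery were followed in the whole skin of 16 mice. The set was formed from every target whose mouse symbol begins with H2-, to which named genes of the peptide-loading, proteasome and class II pathways were added. It held 52 targets, 36 of them H2- genes and 16 others, among the 23930 targets of the assay. Psme2, Cd1d1 and H2-Ea were not analysed here. Of the 52 members, 38 had enough counts for the test and 14 did not.

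The study asked what MCPIP1, the endoribonuclease encoded by Zc3h12a, does in keratinocytes and in myeloid cells of the skin. All mice were 12 weeks old and all, the controls included, carried floxed Zc3h12a alleles, written Zc3h12a(loxP/loxP) in the labels. Control mice had no Cre. EKO mice carried Krt14Cre(Tg/Wt), a transgene driven by the promoter of a keratin of basal keratinocytes. MKO mice carried LysMCre(Tg/Wt), in which Cre sits in Lyz2, a gene active in macrophages and neutrophils. EMdKO mice had both Cre genes. Each group held 4 mice, labelled as separate animals. Whole skin holds many cells that express neither Cre, and MHC genes are used by several of them.

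MHC class I molecules sit on almost every nucleated cell and show peptides cut by the proteasome and pumped into the endoplasmic reticulum by the TAP transporter. MHC class II molecules are made by dendritic cells, Langerhans cells, macrophages and B cells, and by other cells after interferon-gamma, and show peptides from material taken up from outside. The transactivator Nlrc5 acts on class I genes and the transactivator Ciita on class II genes. Both act through factors bound to a conserved promoter module that ends in a Y box. The letters GATTGG were searched below as its core, and variants of them were not searched. In skin the class II pathway is best known from Langerhans cells and dermal dendritic cells.

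The promoters of 6 members are shown because the results below turn on the class II genes H2-Aa, H2-Eb1 and H2-DMb2 and on the class I genes H2-K1, H2-D1 and B2m. Each line holds the 250 bases before a listed RefSeq transcription start in GRCm38.p6, written in the direction of transcription. The windows of H2-K1 and H2-DMb2 lie inside the RefSeq spans of these genes, chr17:33996012-34000619 and chr17:34143229-34151553, and not before their outer ends. Capitals mark matches to 3 motifs searched on both strands: GATTGG (in reverse CCAATC), the cyclic AMP element TGACGTCA and the NF-kappaB type letters GGGATTCCC.
H2-Aa, chr17:34287824-34288073, minus strand: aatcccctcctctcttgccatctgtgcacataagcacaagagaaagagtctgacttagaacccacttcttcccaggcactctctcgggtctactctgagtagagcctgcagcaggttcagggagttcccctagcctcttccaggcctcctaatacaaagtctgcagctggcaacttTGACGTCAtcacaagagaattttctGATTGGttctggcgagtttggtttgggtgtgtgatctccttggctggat
H2-Eb1, chr17:34305617-34305866, plus strand: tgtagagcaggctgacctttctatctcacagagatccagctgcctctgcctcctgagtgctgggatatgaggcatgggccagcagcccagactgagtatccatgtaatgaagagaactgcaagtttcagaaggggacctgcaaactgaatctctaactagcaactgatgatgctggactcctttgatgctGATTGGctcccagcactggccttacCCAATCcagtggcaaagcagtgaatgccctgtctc
H2-DMb2, chr17:34144999-34145248, plus strand: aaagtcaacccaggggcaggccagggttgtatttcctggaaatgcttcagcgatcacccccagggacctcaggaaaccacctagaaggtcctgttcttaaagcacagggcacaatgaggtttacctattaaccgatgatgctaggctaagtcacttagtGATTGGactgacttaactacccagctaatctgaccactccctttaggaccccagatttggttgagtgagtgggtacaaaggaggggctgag
H2-K1, chr17:34000348-34000597, minus strand: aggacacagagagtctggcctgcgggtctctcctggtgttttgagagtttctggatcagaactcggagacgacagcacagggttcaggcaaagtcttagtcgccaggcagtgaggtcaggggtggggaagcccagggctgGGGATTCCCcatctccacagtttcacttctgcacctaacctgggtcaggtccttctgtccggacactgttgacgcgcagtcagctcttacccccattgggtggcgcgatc
H2-D1, chr17:35262844-35263093, plus strand: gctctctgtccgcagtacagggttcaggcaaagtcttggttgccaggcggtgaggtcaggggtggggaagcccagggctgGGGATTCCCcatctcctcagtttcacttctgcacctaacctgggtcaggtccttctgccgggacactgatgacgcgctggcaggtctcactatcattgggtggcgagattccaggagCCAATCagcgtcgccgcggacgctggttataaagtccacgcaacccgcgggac
B2m, chr2:122147437-122147686, plus strand: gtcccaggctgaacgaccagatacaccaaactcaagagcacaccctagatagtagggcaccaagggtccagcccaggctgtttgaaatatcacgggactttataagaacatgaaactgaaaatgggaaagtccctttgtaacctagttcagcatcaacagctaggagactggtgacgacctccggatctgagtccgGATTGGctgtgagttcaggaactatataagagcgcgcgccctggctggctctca
A gene can have several listed starts and so several windows. A GATTGG match was found in at least 1 window of 28 of the 41 members with a promoter entry, against 16.6% of 27025 mouse genes counted the same way, and 8 of 9 class II genes with an entry held it. Per window it was found in 29 of the members' 44 and in 14.6% of all 32851. The H2-Aa promoter alone among the members held TGACGTCA, which occurred in 1.77% of all genes. GGGATTCCC was present in H2-K1, H2-D1, H2-Q6 and H2-Q7, all class I genes, and in 0.352% of genes. No 2 of these motifs overlapped in the windows shown. H2-K1 has a further listed start, and the window before that start held GATTGG within its last 6 bases. A GATTGG match need not be the Y box of the module, and the H2-K1 and H2-D1 lines also hold the unmarked letters cattgg. These matches describe the letters in the window and say nothing of binding in these mice.

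Libraries held 6962474 to 12086327 counts over all targets. Levels are given as CPM, that is, counts scaled to library totals adjusted by the TMM factors of edgeR (0.917 to 1.051). They are means ± SD of 4 mice or values of mouse 1 to 4 in that order. Zc3h12a itself stood at 24.7 ± 4.99 CPM in Control mice, 26.5 ± 7.55 in MKO, 8.64 ± 2.10 in EKO and 5.32 ± 0.617 in EMdKO. The Krt14-Cre mean effect on it, tested with the edgeR quasi-likelihood method, was a log2 difference of -1.92 ± 0.17 (BH adjusted p = 4.21e-05), and MKO skin showed no lower level. Where the measured stretch of Zc3h12a lies relative to the deleted part was not given in the sources used here. All 8 keratinocyte markers were detected in each group, with a summed level of 6379 CPM or more in every library. Control mouse 1 stood apart for the MHC genes. It was the lowest control in 31 of 38 tested members and the lowest of all 16 mice in 25, and EKO mouse 1 was the lowest EKO mouse in 27. Control mouse 1 also had the highest hair shaft score of all mice, a mean log2 CPM of 9.28 over hair keratin and follicle genes. Summed levels of the 22 hair shaft genes ran from 165.3 to 44540 CPM in Control and 231.7 to 8716 CPM in EKO. They ran from 78.2 to 889.8 CPM in MKO and 105 to 9095 CPM in EMdKO. Counts of members below are repeated without one or both of these mice or with the hair score as a covariate where that moved them. In whole skin, fewer cells of a type and less RNA per cell cannot be told apart.

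**Figure D1:**
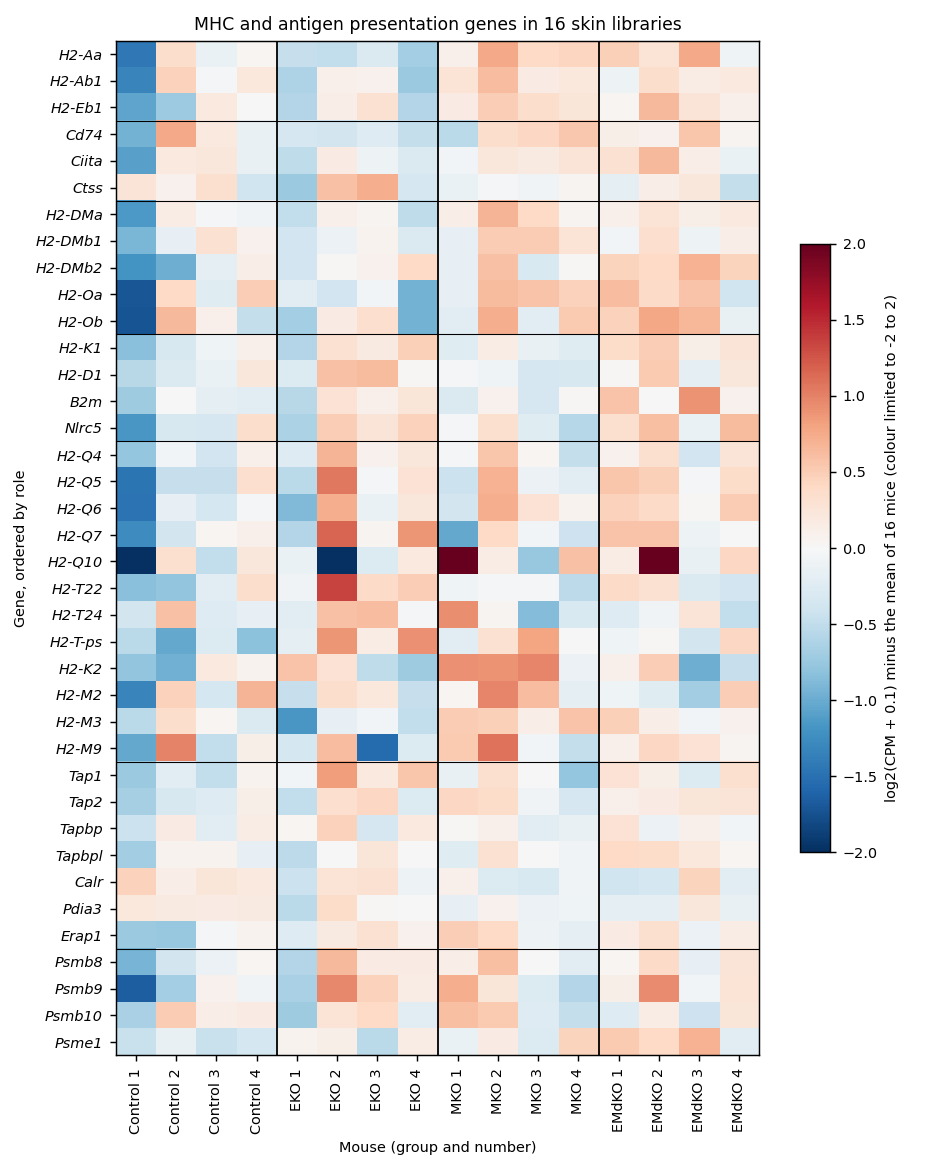
Level of the 38 tested members (rows, ordered by role) in each mouse (columns), as log2(CPM + 0.1) minus the mean of the 16 mice, limited to -2 to 2. The column of Control mouse 1 is blue for most genes, with the lowest value of all mice in 25 of 38, and class II rows at the top are mostly red in MKO and EMdKO.

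In the test over 13633 targets no member passed an adjusted p of 0.05 in any of 9 contrasts (edgeR quasi-likelihood, Benjamini-Hochberg, BH). The share of all targets called was 0% in EKO against Control, 0.0293% in MKO against Control and 0.0293% in EMdKO against Control. It was 0.0147% in EMdKO against EKO, 0.00734% in EMdKO against MKO and 0.858% in EKO against MKO. For the mean effect of LysM-Cre, the average of MKO minus Control and EMdKO minus EKO, 0.044% of targets were called, and 0.924% for the matching mean effect of Krt14-Cre. The interaction of the Cre genes had 0%. At an unadjusted p under 0.05, 4 members were higher in EKO than in Control, against 3.28% of all targets, and none was lower. In MKO 5 members were higher, against 3.17% of targets, and in EMdKO 9 were, against 3.51%. In EMdKO 3 members were higher than in EKO (3.42% of targets), and 2 differed in either direction between EMdKO and MKO (7.42%). Between EKO and MKO 6 differed in either direction (16.9%). DESeq2 and limma-voom called no member in EKO, MKO or EMdKO against Control either.

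Several of these counts moved by over 1.5 times with single libraries or the hair score. The 4 members higher in EKO became 14 without EKO mouse 1 (5.36% of targets) and 8 with the hair score (3.97%). Without Control mouse 1 they became 3 higher (4.71%) and 2 lower (5.03%), and without both mice 6 higher (7.01%) and 2 lower (7.59%). The 5 higher in MKO became 1 without Control mouse 1 (1.78%), 1 without both mice (1.94%) and 1 with the hair score (2.19%), each near the share of all targets. The 9 higher in EMdKO became 3 without Control mouse 1 (3.06%), 5 without both mice (3.73%) and 3 with the hair score (3.15%), and 12 without EKO mouse 1 (4% of targets). In EMdKO against EKO the 3 became 6 without Control mouse 1 (4.02%). The count was 2 higher (3.88%) and 2 lower (3.67%) without EKO mouse 1, 4 higher (4.94%) and 2 lower (4.5%) without both, and 2 higher (4.73%) and 2 lower (4.2%) with the hair score. Between EMdKO and MKO the 2 became 3 higher (5.9% of targets) and 1 lower (4.31%) without both mice, and 4 with the hair score (8.6% in either direction). Between EKO and MKO the 6 became 10 without Control mouse 1 (19% of targets), 14 without both mice (23.2%) and 11 with the hair score (17.3%).

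For the LysM-Cre mean effect 29 of 38 members were positive (50.5% of all targets) and 9 were higher at an unadjusted p under 0.05 (5.49% of targets), with none lower. For the Krt14-Cre mean effect 25 were positive (45.2% of targets) and 9 were higher at that p (5.62%), with none lower. Without Control mouse 1 and EKO mouse 1 the higher members numbered 5 for LysM-Cre (5.45% of targets) and 10 for Krt14-Cre (9.33%). Without Control mouse 1 alone they numbered 7 (4.39%) and 4 (7.49%). With the hair score as a covariate 3 were higher (4.78%) and 2 lower for LysM-Cre, and 11 were higher (6.83%) for Krt14-Cre. Without EKO mouse 1 alone the LysM-Cre count was 8 higher (6.63%) and 2 lower (7.55%), and the Krt14-Cre count 11 higher (7.27%).

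Most class II genes had higher mean levels with LysM-Cre, and the 4 classical class I genes with Krt14-Cre, though no member passed the adjusted test. Over all 27 tested class I pathway genes the median log2 fold change was 0.21 for LysM-Cre, 19 positive, and 0.22 for Krt14-Cre, 20 positive. The 12 non-classical genes among them had medians of 0.23 and 0.22. With the hair score as a covariate the median of the 27 genes was -0.11 for LysM-Cre, with 10 positive and 17 negative. For Krt14-Cre it was then 0.25, with 20 positive. The 11 tested class II genes had a median log2 fold change of 0.45 for LysM-Cre, 10 of 11 positive, and of -0.07 for Krt14-Cre, 5 of 11 positive. The 4 classical class I genes, counted here as H2-K1, H2-D1, B2m and Nlrc5, had a median of 0.16 for LysM-Cre and 0.42 for Krt14-Cre, where all 4 were positive. The median over all tested targets was 0.00 for LysM-Cre and -0.02 for Krt14-Cre. An unadjusted p under 0.05 was reached by 6 of 11 class II genes for LysM-Cre and by 1 for Krt14-Cre, and by 0 and 4 of the 4 classical class I genes. All of these were higher, against 5.49% of all targets higher at that p for LysM-Cre and 5.62% for Krt14-Cre. Without Control mouse 1 and EKO mouse 1, 10 of 11 class II genes were still positive for LysM-Cre with a median of 0.29. An unadjusted p under 0.05 was then reached by 2, with 5.45% of all targets higher at that p. With the hair score as a covariate 1 class II gene reached it (4.78% of targets higher), with a median of 0.30. Without Control mouse 1 and EKO mouse 1 all 4 classical class I genes reached it for Krt14-Cre (9.33% of targets higher), with a median of 0.44. Without Control mouse 1 alone 2 did (7.49%). The difference between the classical class I and the class II values was not tested.

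**Figure D2:**
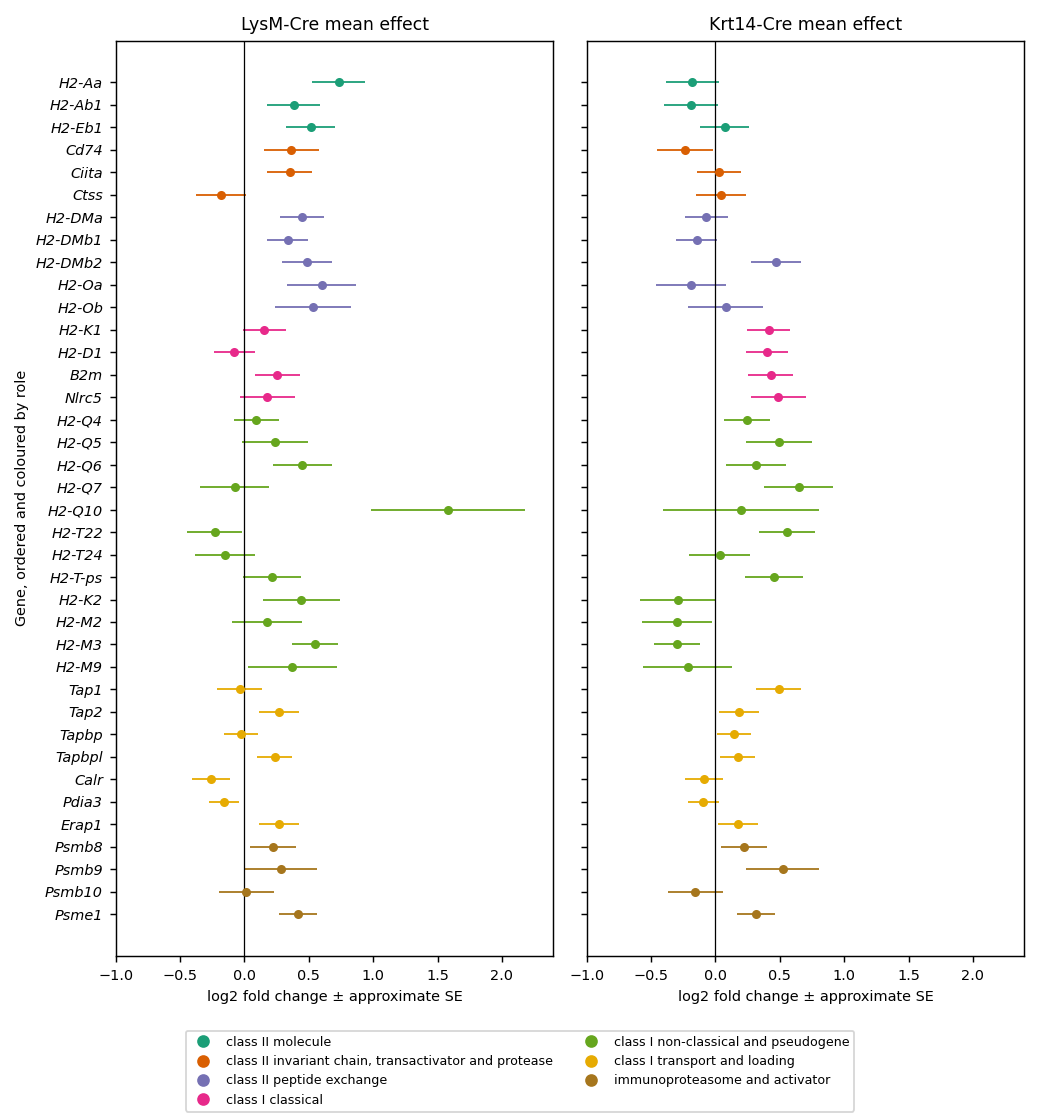
Mean effect of LysM-Cre (left) and of Krt14-Cre (right) on each tested member, as log2 fold change with its approximate standard error, coloured by role. Class II points lie mostly right of 0 on the left panel, and the classical class I points lie right of 0 on the right panel, between 0.40 and 0.49.

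H2-Aa encodes the alpha chain of the class II molecule I-A. It measured 310.0, 1066, 764 and 859.6 CPM in Control and 607, 594, 687 and 521 CPM in EKO. It measured 898, 1409, 1102 and 1128 CPM in MKO and 1171, 1013, 1420.4 and 788 CPM in EMdKO. Every EKO mouse lay below every MKO mouse and below every EMdKO mouse, while the controls spanned from below EKO to the MKO range. H2-Aa differed by 0.73 ± 0.21 for LysM-Cre (edgeR quasi-likelihood, unadjusted p = 0.00268, BH adjusted p = 0.166). The log2 difference was -0.91 ± 0.29 in EKO against MKO (BH adjusted p = 0.137). It was 0.87 ± 0.29 in EMdKO against EKO (BH adjusted p = 0.672). H2-Aa in EKO against MKO was called by DESeq2 (adjusted p = 0.0408, 4.61% of targets called) and by limma-voom (adjusted p = 0.00822, 11.7% called). With Control mouse 1 left out, edgeR called H2-Aa in EKO against MKO (-0.91, BH adjusted p = 0.0282, 2.54% of targets called), and also with EKO mouse 1 left out too (BH adjusted p = 0.027, 6.11%). An edgeR fit on the EKO and MKO libraries alone called no member. For LysM-Cre DESeq2 called H2-Aa (0.73, adjusted p = 0.0292, 1.9% of targets called).

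H2-Ab1 encodes the I-A beta chain. It measured 139.6, 479, 338 and 402 CPM in Control and 226, 372, 369 and 208 CPM in EKO. Levels in MKO were 421, 531, 389 and 404 CPM, and those in EMdKO were 325, 443, 386 and 398 CPM. The EKO and MKO values did not overlap, and the controls covered nearly the whole range. For LysM-Cre its log2 difference was 0.38 ± 0.21 (edgeR quasi-likelihood, BH adjusted p = 0.44). Leaving out Control mouse 1 gave 0.25. H2-Eb1, the I-E beta chain, measured 141, 177, 334 and 295 CPM in Control and 195, 320.1, 361 and 196 CPM in EKO. The MKO mice measured 328, 413, 372 and 345 CPM, and the EMdKO mice measured 300.4, 459.8, 349 and 314 CPM. Its lower values were all in Control and EKO, where mice split into a low and a high pair. The LysM-Cre mean effect on H2-Eb1 was 0.52 ± 0.19 (BH adjusted p = 0.266). Control mouse 2 held the highest control values of H2-Aa and H2-Ab1 and a low value of H2-Eb1.

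**Figure D3:**
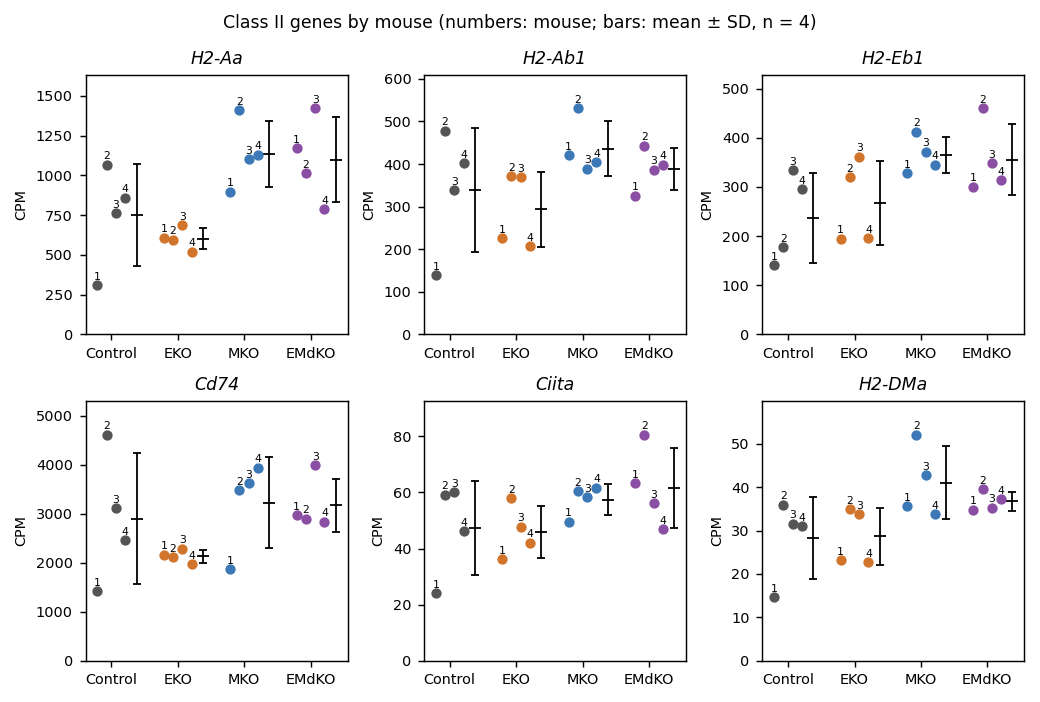
CPM of 6 class II genes in each mouse (points, numbered by mouse) with the mean ± SD of 4 mice (bars) for Control, EKO, MKO and EMdKO. H2-Aa in EKO sits between 521 and 687 CPM, below all MKO and EMdKO mice, and Control mouse 1 is the lowest control in all 6 panels.

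Cd74, the invariant chain that blocks the class II groove until the endosome is reached, measured 1416, 4614, 3112 and 2459 CPM in Control. It measured 2165, 2113, 2287 and 1968 CPM in EKO, a narrow range. Values in MKO were 1868, 3483, 3627 and 3942 CPM, and the EMdKO mice measured 2972, 2896, 3987 and 2842 CPM. Every EMdKO mouse lay above every EKO mouse, whereas MKO mouse 1 lay below all EKO mice. The log2 difference in EMdKO against EKO was 0.57 ± 0.31 (edgeR quasi-likelihood, BH adjusted p = 0.765). Ciita, the class II transactivator, measured 24.2, 59.1, 60.2 and 46.2 CPM in Control and 36.2, 57.9, 47.8 and 42.0 CPM in EKO. The MKO values were 49.5, 60.4, 58.3 and 61.6 CPM, and the EMdKO mice measured 63.3, 80.6, 56.1 and 46.8 CPM. The groups overlapped in every pair. Its LysM-Cre mean effect was 0.35 ± 0.17 (BH adjusted p = 0.397). Ctss, the protease that trims the invariant chain, measured 41.2, 36.5, 43.1 and 26.2 CPM in Control and 20.5, 51.9, 56.9 and 27.2 CPM in EKO. The mice of MKO stood at 31.5, 33.5, 33.0 and 35.8 CPM, and those in EMdKO were 30.6, 37.7, 40.4 and 24.9 CPM. It was the class II member with a negative LysM-Cre mean effect, -0.18 ± 0.19 (BH adjusted p = 0.713).

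The DM molecule exchanges peptides on class II, and the DO molecule holds DM back. H2-DMa, the DM alpha chain, measured 14.6, 36.0, 31.6 and 31.0 CPM in Control and 23.1, 35.0, 33.7 and 22.7 CPM in EKO. It measured 35.6, 52.1, 42.8 and 33.8 CPM in MKO and 34.8, 39.5, 35.3 and 37.3 CPM in EMdKO. MKO mice 2 and 3 had the highest values, and EMdKO mice lay close together. The LysM-Cre mean effect on H2-DMa was 0.45 ± 0.17 (edgeR quasi-likelihood, BH adjusted p = 0.276). H2-DMb1, a DM beta chain, measured 18.6, 31.5, 43.6 and 37.2 CPM in Control and 26.8, 32.4, 36.8 and 28.6 CPM in EKO. MKO mice had 31.5, 50.2, 49.8 and 42.5 CPM, while EMdKO mice measured 33.7, 44.5, 32.7 and 38.6 CPM. All 4 groups overlapped, and the LysM-Cre mean effect was 0.34 ± 0.16 (BH adjusted p = 0.38).

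H2-DMb2, the other DM beta chain, measured 7.43, 8.63, 15.04 and 18.7 CPM in Control and 13.1, 17.4, 18.2 and 22.7 CPM in EKO. In MKO it measured 15.2, 25.7, 13.8 and 17.4 CPM, and the EMdKO mice measured 23.5, 22.5, 27.8 and 23.4 CPM. Every EMdKO mouse lay above every control. The log2 difference was 0.96 ± 0.27 in EMdKO against Control (edgeR quasi-likelihood, unadjusted p = 0.00298, BH adjusted p = 0.358). H2-DMb2 was the class II member with an unadjusted p under 0.05 for both Cre genes, at 0.49 ± 0.19 for LysM-Cre (BH adjusted p = 0.301) and 0.47 ± 0.19 for Krt14-Cre (BH adjusted p = 0.364). Its longest GENCODE transcript matched that of H2-DMb1 at 95.4% of 848 aligned bases, so reads of the pair may be shared and their separate values are uncertain.

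H2-Oa, the DO alpha chain, measured 1.11, 5.18, 3.27 and 5.50 CPM in Control and 3.30, 2.97, 3.76 and 1.97 CPM in EKO. The mice of MKO stood at 3.45, 6.07, 5.84 and 5.396 CPM, and those in EMdKO were 6.05, 5.09, 5.80 and 2.94 CPM. No pair of groups was separate, and the LysM-Cre mean effect was 0.60 ± 0.27 (edgeR quasi-likelihood, BH adjusted p = 0.363). H2-Ob, the DO beta chain, measured 2.11, 11.4, 7.75 and 5.12 CPM in Control and 4.44, 8.11, 9.10 and 3.68 CPM in EKO. The MKO mice measured 6.11, 12.0, 6.20 and 10.42 CPM, and the EMdKO mice measured 9.94, 12.4, 11.4 and 6.51 CPM. Its control mice covered most of the range of all groups. The LysM-Cre mean effect was 0.53 ± 0.29 (BH adjusted p = 0.448).

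H2-K1 and H2-D1 encode the classical class I heavy chains, which show peptides to CD8+ T cells. H2-K1 measured 647, 925, 1086 and 1234 CPM in Control and 767, 1425, 1310.5 and 1612 CPM in EKO. Levels in MKO were 979.9, 1279, 1037 and 974 CPM, and those in EMdKO were 1493, 1628, 1258 and 1386 CPM. Every EMdKO mouse lay above every control, and MKO stayed within or just above the control range. The log2 difference of H2-K1 was 0.57 ± 0.24 in EMdKO against Control (edgeR quasi-likelihood, BH adjusted p = 0.543) and 0.41 ± 0.17 for Krt14-Cre (BH adjusted p = 0.357). H2-D1 measured 379.7, 455, 509.6 and 651 CPM in Control and 459, 835, 859.7 and 562 CPM in EKO. Values in MKO were 545, 522, 439 and 445 CPM, and the EMdKO mice measured 562, 797, 484 and 649 CPM. EKO mice 2 and 3 had the highest values and the groups overlapped. Its Krt14-Cre mean effect was 0.40 ± 0.16 (BH adjusted p = 0.357). The longest GENCODE transcripts of H2-K1 and H2-D1 matched at 91.2% of 1049 aligned bases. That of H2-Q4 matched H2-K1 at 91.4% of 675 bases and H2-D1 at 91.6% of 670. Reads of these genes may therefore be shared, and their separate values are uncertain.

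B2m encodes beta-2-microglobulin, the light chain that every class I molecule needs. It measured 1104, 1821, 1588 and 1565 CPM in Control and 1226, 2222, 1937 and 2133 CPM in EKO. It measured 1481, 1925, 1434 and 1831 CPM in MKO and 2672, 1815, 3362 and 1915 CPM in EMdKO. EMdKO mice 1 and 3 exceeded all other mice, and EMdKO mouse 2 lay just below Control mouse 2. The log2 difference was 0.68 ± 0.25 in EMdKO against Control (edgeR quasi-likelihood, BH adjusted p = 0.464) and 0.43 ± 0.18 for Krt14-Cre (BH adjusted p = 0.366). Nlrc5, the class I transactivator, measured 38.5, 68.9, 68.6 and 110.0 CPM in Control and 55.6, 122, 103 and 119 CPM in EKO. The MKO values were 84.2, 108, 73.0 and 58.0 CPM, and the EMdKO mice measured 108, 132, 78.5 and 135 CPM. The groups overlapped in every pair. Its Krt14-Cre mean effect was 0.49 ± 0.21 (BH adjusted p = 0.407), and with the hair score as a covariate it was 0.53 and was called (BH adjusted p = 0.0384, 1.4% of targets called).

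**Figure D4:**
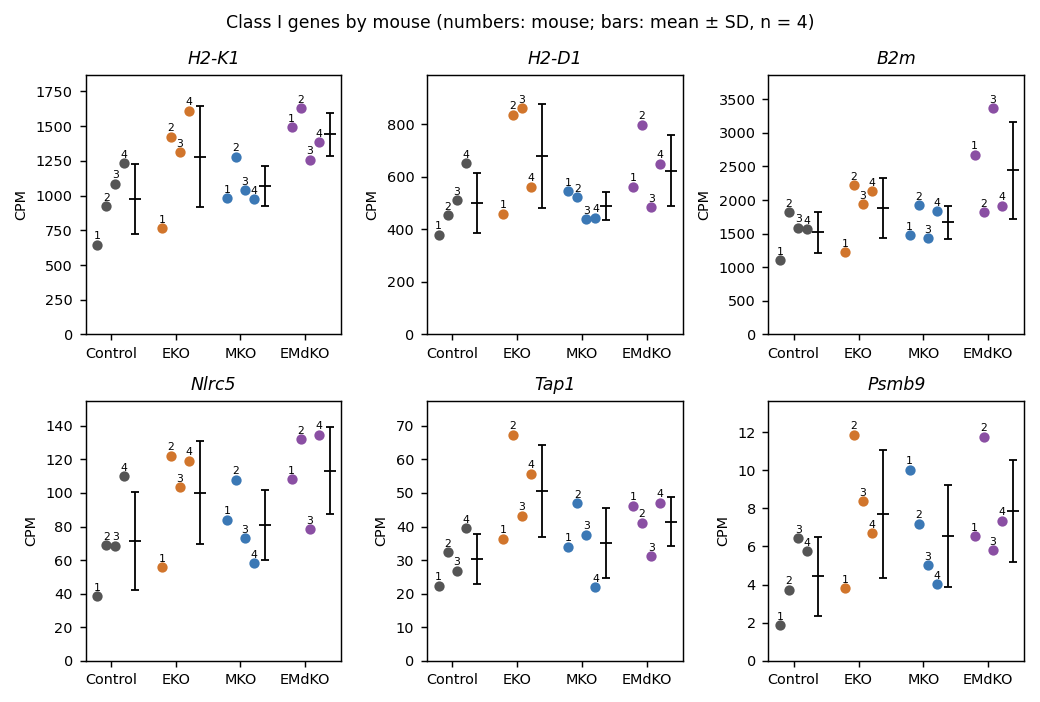
CPM of 6 class I pathway genes in each mouse (points, numbered by mouse) with the mean ± SD of 4 mice (bars) for Control, EKO, MKO and EMdKO. H2-K1 in EMdKO, between 1258 and 1628 CPM, lies above all 4 controls, while most other group ranges overlap.

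Class I peptides are cut by the immunoproteasome and carried by TAP. Tap1, a subunit of the transporter, measured 22.4, 32.4, 26.8 and 39.5 CPM in Control and 36.3, 67.3, 43.2 and 55.7 CPM in EKO. Levels in MKO were 34.0, 46.9, 37.5 and 21.96 CPM, and those in EMdKO were 46.2, 41.1, 31.2 and 47.0 CPM. EKO overlapped Control through EKO mouse 1 and Control mouse 4. The log2 difference was 0.74 ± 0.25 in EKO against Control (edgeR quasi-likelihood, unadjusted p = 0.00823, BH adjusted p = 0.581) and 0.49 ± 0.17 for Krt14-Cre (BH adjusted p = 0.275). Psmb8, an immunoproteasome subunit, measured 43.5, 64.3, 76.4 and 85.0 CPM in Control and 55.5, 130.1, 93.0 and 93.0 CPM in EKO. MKO mice had 90.9, 126, 82.5 and 71.8 CPM, while EMdKO mice measured 85.4, 108, 73.8 and 99.0 CPM. Its mean lay between 91.7 and 92.9 CPM in the 3 knockout groups and at 67.3 ± 18.0 CPM in Control. No contrast had an unadjusted p under 0.05, the log2 difference being 0.47 ± 0.25 in EKO, 0.46 ± 0.25 in MKO and 0.45 ± 0.25 in EMdKO against Control.

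Psmb9, a further immunoproteasome subunit, measured 1.86, 3.74, 6.45 and 5.75 CPM in Control and 3.82, 11.9, 8.37 and 6.70 CPM in EKO. The mice of MKO stood at 10.03, 7.204, 5.005 and 4.02 CPM, and those in EMdKO were 6.55, 11.8, 5.80 and 7.35 CPM. The groups overlapped, and the Krt14-Cre mean effect was 0.52 ± 0.28 (edgeR quasi-likelihood, BH adjusted p = 0.541). Psmb10, the remaining catalytic subunit, had group means between 11.7 and 13.6 CPM. Psme1, a subunit of the proteasome activator PA28, averaged 130.3 ± 12.8 CPM in Control and 163 ± 32.5 CPM in EKO. The averages were 174 ± 39.7 CPM in MKO and 217 ± 53.6 CPM in EMdKO. Psme1 had an unadjusted p under 0.05 for both Cre genes, at 0.42 ± 0.15 for LysM-Cre (BH adjusted p = 0.249) and 0.32 ± 0.15 for Krt14-Cre (BH adjusted p = 0.444). Its log2 difference in EMdKO against Control was 0.73 ± 0.21 (BH adjusted p = 0.358).

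Calr and Pdia3 encode calreticulin and ERp57, chaperones that fold class I heavy chains and many other glycoproteins. Calr measured 520.1, 414, 447 and 432 CPM in Control and 282, 459, 469 and 355 CPM in EKO. It measured 406, 315, 308 and 362 CPM in MKO and 286, 296, 517 and 323 CPM in EMdKO. Every MKO mouse lay below every control, and EMdKO mouse 3 lay apart from its group. The log2 difference of Calr in MKO against Control was -0.38 ± 0.21 (edgeR quasi-likelihood, BH adjusted p = 0.58). Pdia3 measured 417, 408, 404 and 405 CPM in Control and 247, 462, 365 and 360.2 CPM in EKO. In MKO it measured 322, 382, 329.7 and 338 CPM, and the EMdKO mice measured 313, 312, 419 and 326 CPM. The 4 controls lay close together, all above every MKO mouse, and the log2 difference was -0.25 ± 0.17 (BH adjusted p = 0.667). The other loading genes showed no separation of groups. Their LysM-Cre and Krt14-Cre mean effects were 0.27 ± 0.16 and 0.18 ± 0.16 for the transporter subunit Tap2 and -0.02 ± 0.13 and 0.14 ± 0.13 for tapasin, encoded by Tapbp. They were 0.23 ± 0.14 and 0.17 ± 0.14 for the tapasin-related Tapbpl and 0.27 ± 0.15 and 0.18 ± 0.15 for the peptide-trimming Erap1. Erap1 had a log2 difference of 0.49 ± 0.22 in MKO against Control (unadjusted p = 0.039, BH adjusted p = 0.497).

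Among the non-classical class I genes, H2-M3, which shows formylated bacterial peptides, had its group means in the same order as H2-Aa. It measured 4.21, 7.91, 6.35 and 4.998 CPM in Control and 2.68, 5.50, 5.95 and 4.34 CPM in EKO. The mice of MKO stood at 8.78, 8.59, 6.79 and 9.16 CPM, and those in EMdKO were 8.62, 6.78, 5.90 and 6.51 CPM. Every EKO mouse lay below every MKO mouse. The log2 difference was -0.85 ± 0.26 in EKO against MKO (edgeR quasi-likelihood, BH adjusted p = 0.116), and DESeq2 (adjusted p = 0.0432) and limma-voom (adjusted p = 0.0435) called it. For LysM-Cre it was 0.55 ± 0.18 (BH adjusted p = 0.216). Besides H2-Aa and H2-M3, limma-voom called Cd74 and H2-DMb1 lower and H2-D1 and H2-T22 higher in EKO than in MKO. These 6 calls are 15.8% of the 38 members, near the 11.7% of all targets that limma-voom called there, and the 2 of DESeq2 are 5.26%, against 4.61%.

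H2-T-ps, a T-region pseudogene, measured 1.86, 1.29, 2.24 and 1.499 CPM in Control and 2.37, 5.15, 3.03 and 5.25 CPM in EKO. Levels in MKO were 2.35, 3.41, 4.77 and 2.76 CPM, and those in EMdKO were 2.57, 2.79, 2.09 and 3.68 CPM. Both single knockouts lay above every control, but EMdKO mouse 3 fell within the control range. The log2 difference was 1.177 ± 0.33 in EKO against Control (edgeR quasi-likelihood, unadjusted p = 0.00233, BH adjusted p = 0.418). It was the member with an unadjusted p under 0.05 for the interaction of the Cre genes (-1.44 ± 0.45, BH adjusted p = 0.999, 3.41% of targets under that p). H2-T-ps had only 9 to 59 counts per library. Its longest GENCODE transcript matched that of H2-Q7 at 95.3% of 279 aligned bases, so reads may be shared and its values are uncertain. H2-Q6, a Qa-region gene, measured 33.8, 84.7, 73.8 and 92.1 CPM in Control and 51.1, 156, 86.4 and 111 CPM in EKO. The MKO mice measured 73.4, 156, 116 and 98.8 CPM, and the EMdKO mice measured 130, 123, 96.1 and 134 CPM. All EMdKO mice lay above all controls, at a log2 difference of 0.76 ± 0.33 (BH adjusted p = 0.568).

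H2-T22, a ligand of some gamma delta T cells, averaged 58.6 ± 24.02 CPM in Control and 111 ± 49.3 CPM in EKO. The averages were 64.1 ± 9.75 CPM in MKO and 73.5 ± 19.7 CPM in EMdKO, and EKO mouse 2 reached 181 CPM. Its log2 difference in EKO against Control was 0.91 ± 0.31 (edgeR quasi-likelihood, BH adjusted p = 0.582). Leaving out EKO mouse 2 gave 0.57. H2-Q7, the Qa-2 gene, averaged 19.8 ± 7.26 CPM in Control and 35.1 ± 17.6 in EKO, a log2 difference of 0.82 ± 0.38 (BH adjusted p = 0.72). Leaving out EKO mouse 2 gave 0.53. H2-Q10 had its highest value, 11.99 CPM, in EMdKO mouse 2, followed by MKO mouse 1 at 6.58 CPM. The LysM-Cre mean effect was 1.58 ± 0.60 (BH adjusted p = 0.28), 0.92 without EMdKO mouse 2 and 1.17 without MKO mouse 1. The remaining tested non-classical genes, H2-Q4, H2-Q5, H2-T24, H2-K2, H2-M2 and H2-M9, overlapped between all groups. H2-K2 alone among them had an unadjusted p under 0.05, at a log2 difference of 1.03 ± 0.42 in MKO against Control (BH adjusted p = 0.433) and -0.88 ± 0.41 in EMdKO against MKO (BH adjusted p = 0.667). Transcripts of this family are alike, with 94.7% identity over 1499 bases between H2-Q10 and H2-Q7 and 94.2% over 624 bases between H2-Q6 and H2-Q7, so the split of reads between them is uncertain.

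Groups that did not overlap were counted for each pair of groups. In EKO against Control this held for 1 of 38 members and 2.26% of all targets, and in MKO against Control for 3 members and 3.08%. In EMdKO against Control it held for 3 members and 3.67%, and in EMdKO against EKO for 2 members and 5.57%. It held for 0 members and 5.99% of targets in EMdKO against MKO, where 2 members had an unadjusted p under 0.05. In EKO against MKO, 3 members and 5.16% of targets lay lower in EKO with no overlap, and no member lay higher. For scale, 1 member is 2.63% of 38.

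The 14 members without a test were close to silent in these libraries. H2-M10.1, H2-M10.3, H2-M10.5 and H2-M1 had 0 counts in all 16 libraries, which allows up to 3 counts in each. H2-Eb2 reached 7 counts and H2-M10.2 reached 5. H2-Bl, H2-T3, H2-M5, H2-Q1, H2-Q2, H2-M10.4, H2-M10.6 and H2-M11 had at most 3. At this depth no difference between groups could be seen for them.

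The transactivators were set against their targets across the 16 mice, as 10 relations chosen for this purpose. Nlrc5 went with H2-K1 (Pearson r = 0.933, permutation p = 1e-05, the smallest the permutations can give, Spearman rho = 0.876). On deviations from group means the r was 0.904 (permutation p = 0.00036), and without Control mouse 1 and EKO mouse 1, the mice farthest from the median Nlrc5 level, it was 0.871 (permutation p = 0.00015). Nlrc5 also went with Tap1 (r = 0.841, rho = 0.835, BH adjusted permutation p = 0.000333) and Psmb9 (r = 0.847, rho = 0.797, BH adjusted permutation p = 0.0002). Without those 2 mice these were 0.861 and 0.699 (BH adjusted permutation p = 0.0007 and 0.0192). Nlrc5 with B2m had r = 0.56 and rho = 0.526 (BH adjusted permutation p = 0.031 and 0.0539), and 0.234 without the 2 mice. With the class II gene H2-Ab1 it had r = 0.501 and rho = 0.221, and r = -0.169 without the 2 mice, so the r over all mice rested on them. On deviations from group means, with the 2 mice kept, r was 0.648 and rho 0.594 (BH adjusted permutation p = 0.0641 and 0.0747).

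Ciita went with H2-Ab1 (r = 0.821, rho = 0.447), H2-Aa (r = 0.795, rho = 0.6), H2-Eb1 (r = 0.766, rho = 0.609) and Cd74 (r = 0.721, rho = 0.6) over all 16 mice. The BH adjusted permutation p of r was 0.0012, 0.00125, 0.00125 and 0.00181, and that of rho was 0.104 for H2-Ab1 and 0.0265 for the others. Within groups r was 0.798, 0.75, 0.694 and 0.687 (BH adjusted permutation p = 0.0357, 0.0579, 0.0357 and 0.0357). The rho within groups was 0.641, 0.526, 0.588 and 0.553, and none passed (BH adjusted permutation p = 0.0565, 0.0985, 0.0903 and 0.0903). Without Control mouse 1 and EKO mouse 1 the r values were 0.446, 0.523, 0.471 and 0.517 (BH adjusted permutation p = 0.157, 0.114, 0.157 and 0.114), and these relations no longer passed. Ciita with B2m had r = 0.552 and rho = 0.356 and r = 0.115 without the 2 mice. All values come from the same libraries, and differences in the cell makeup of the skin pieces enter both genes of a pair.

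**Figure D5:**
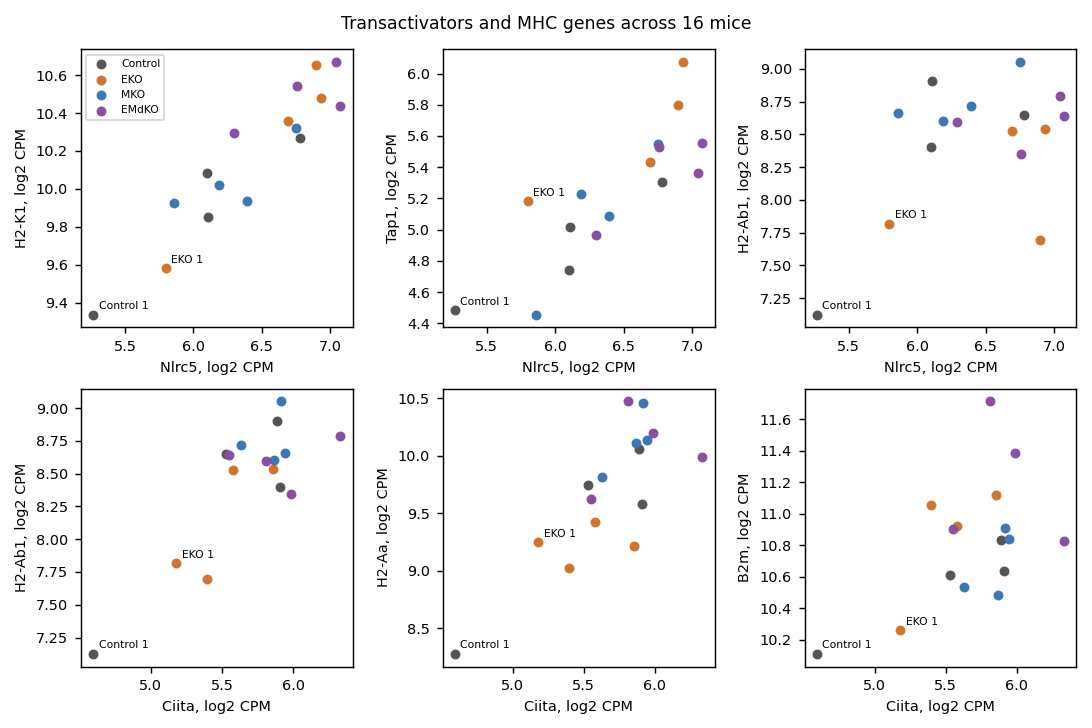
Log2 CPM of a transactivator (x axis) against a target gene (y axis) in 16 mice, coloured by group, with Control mouse 1 and EKO mouse 1 named. H2-K1 and Tap1 follow Nlrc5 along the whole range, whereas the relations of Ciita with H2-Ab1 and H2-Aa are drawn out by the 2 named mice.

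Genes that work with the pathway were read from lists. Interferon-gamma signalling and target genes, inducers and companions of MHC expression, had 14 of 16 tested members positive for LysM-Cre (50.5% of all targets), with a median log2 fold change of 0.43, and 3 of 16 positive for Krt14-Cre (45.2% of all targets), with a median of -0.16. None was called over all targets by edgeR, and 7 had an unadjusted p under 0.05 for LysM-Cre, 6 higher (5.49% of targets) and 1 lower (7.64% of targets). The guanylate-binding protein gene Gbp4 had a LysM-Cre mean effect of 1.43 ± 0.37 (edgeR quasi-likelihood, BH adjusted p = 0.136) and the interferon-gamma receptor gene Ifngr1 one of 0.35 ± 0.10 (BH adjusted p = 0.184). The member with the lower level was the chemokine gene Cxcl10, at -1.73 ± 0.70 (BH adjusted p = 0.313), named after its value was seen. Irf1, a transcription factor of class I genes also named after its values were seen, averaged 47.5 ± 14.4 CPM in Control and 47.7 ± 4.81 CPM in EKO. Its mean was 70.2 ± 16.7 CPM in MKO and 68.8 ± 32.8 CPM in EMdKO. Ifng averaged under 1 CPM in every group. Summed levels of the 18 matched genes of this list ran from 784.2 to 2148 CPM in Control and 1001 to 1167 CPM in EKO. They ran from 1279 to 1522 CPM in MKO and 1235 to 1503 CPM in EMdKO, so the controls spanned all other groups. The list was not examined without Control mouse 1 or with the hair score. Of 6 class II transcription factors, 4 were positive for LysM-Cre, with a median of 0.02. The constitutive proteasome, whose subunits the immunoproteasome replaces, had 11 of 13 members negative for LysM-Cre, with a median of -0.21 (50.5% of all targets positive). For Krt14-Cre 12 of 13 were positive, with a median of 0.10 (45.2% of all targets positive). At an unadjusted p under 0.05, only 2 were lower for LysM-Cre (7.64% of targets) and 1 higher for Krt14-Cre (5.62%). Class II processing partners had a median of -0.26 for LysM-Cre, class I endoplasmic reticulum partners -0.06 and co-stimulatory genes 0.04.

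Markers of the cells that carry class II were read beside these results. The 12 macrophage markers had summed levels of 736.6 to 1064 CPM in Control and 510.8 to 1003 CPM in EKO. These were 585.1 to 780.0 CPM in MKO and 531.2 to 754.8 CPM in EMdKO, with C1qa, a complement gene, at 0 in all Control and all MKO mice. The median LysM-Cre mean effect was -0.09 over the 11 tested. Within that list Adgre1, the F4/80 gene, averaged 17.5 ± 4.04 CPM in Control and 18.1 ± 5.41 CPM in EKO, against 33.0 ± 5.49 CPM in MKO and 33.7 ± 8.33 CPM in EMdKO (LysM-Cre mean effect 0.91 ± 0.18, BH adjusted p = 0.0702). Lyz2, in which that Cre is inserted, had a LysM-Cre mean effect of -0.77 ± 0.21 (BH adjusted p = 0.155). The 11 dendritic and Langerhans cell markers, none at 0 in any group, had summed levels of 69.2 to 141.6 CPM in Control and 97.3 to 118.9 CPM in EKO. These were 107 to 118.7 CPM in MKO and 93.1 to 129.6 CPM in EMdKO, with a median LysM-Cre mean effect of 0.12. Cd207, the langerin gene of Langerhans cells, named after its values were seen, ranged from 5.33 to 23.8 CPM over all mice. The 7 matched B and plasma cell markers, none at 0 in any group, had summed levels of 3.92 to 7.497 CPM in Control and 3.16 to 4.97 CPM in EKO. These were 7.52 to 37.9 CPM in MKO and 5.36 to 11.9 CPM in EMdKO. Of the 3 tested, 2 were called lower in EKO than in MKO (edgeR quasi-likelihood), where 0.858% of all targets were called in either direction. One was the antibody joining chain gene Jchain, at a log2 difference of -5.38 ± 0.94 (BH adjusted p = 0.0178). The other was the B-cell receptor gene Cd79b, at -1.79 ± 0.35 (BH adjusted p = 0.0327). No interferon-gamma or hair shaft gene was called by edgeR in any contrast, and no B-cell marker for LysM-Cre. At an unadjusted p under 0.05, however, 20 of 22 hair shaft genes were lower for LysM-Cre (7.64% of all targets lower). In MKO against Control 21 were lower at that p (6.41%), with a median log2 fold change of -6.41. The part of these lists in the class II values was not tested.

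Keratinocyte markers stood beside the class I genes, with summed levels of 6658 to 12740 CPM in Control and 6379 to 20500 CPM in EKO. These were 6914 to 10820 CPM in MKO and 10490 to 14380 CPM in EMdKO. Their median Krt14-Cre mean effect was 0.36, with 7 of 8 positive (45.2% of all targets). Of these markers Krt1 was called (1.63 ± 0.37, edgeR quasi-likelihood, BH adjusted p = 0.0457), against 0.924% of all targets called. The part of these markers in the class I values was not tested. Neutrophil markers were uneven between mice, at 8.57 to 578.1 CPM in EKO and 5.498 to 86.0 CPM in Control. Of the 5 tested, 3 were positive and 2 negative in EKO against MKO. There S100a8 and S100a9 were called higher (edgeR quasi-likelihood, BH adjusted p = 0.0389 and 0.0305, 0.858% of targets called). In the same contrast 1 marker was lower at an unadjusted p under 0.05. T and NK cell markers had medians of 0.14 for LysM-Cre and 0.03 for Krt14-Cre, fibroblast markers -0.05 and -0.27, and endothelial markers 0.19 and -0.21. Fat cell markers had medians of 0.15 and -0.26 and skeletal muscle markers 0.22 and -0.24. The hair shaft list had all 22 members negative for LysM-Cre, with a median of -3.67, whereas 50.5% of all targets were positive.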

How the data were processed

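Total RNA of snap-frozen whole skin was turned into targeted libraries with the Ion AmpliSeq Transcriptome Mouse kit, as the labels' protocols state. The deposited files hold raw read counts per target, and the submitters' processing notes name HTSeq 0.6.0 and DESeq2 1.18.1 as the authors' tools. Aligner, build and annotation: not given in the sources used here. The libraries carry no molecular identifiers that the sources mention, so limits from counts cover counting error only. Depth was 6962474 to 12086327 counts. Summary lines, 3.11 to 5.25% of reads, were left out.

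Symbols were found for 22562 of 23930 targets (22452 from RefSeq GRCm38.p6, 110 from GENCODE vM21). Groups and mouse numbers came from the titles. Members, lists and tests were chosen with earlier results of these data known.

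The model covered all targets, with edgeR 4.0.16 under R 4.3.3: quasi-likelihood test, TMM scaling, default expression filter, a mean for each group, 12 residual degrees of freedom, biological coefficient of variation 0.31. Benjamini-Hochberg (BH) adjustment ran over 13633 targets in each of 9 contrasts, and an adjusted p under 0.05 was a call. Standard errors are approximate, from the fold change and its F statistic. Correlations used log2 CPM (prior count 2) and 100000 permutations. Chi-square per degree of freedom was at least 15.25 between any pair of libraries, so none looked like a copy. Separate animals are named in the titles, and nothing more is known of their litters.

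Values in every mouse are given for H2-K1, H2-D1, B2m, Nlrc5, Tap1, Psmb8, Psmb9, the class II genes, Cd74, Ciita and Ctss, and for members whose groups did not overlap. The other members are given by means, ranges or fold changes. Of each list, called genes or else the 2 with the smallest p were named, with exceptions stated. Alternatives were DESeq2 1.42.0, limma-voom 3.58.1 with quality weights, scaling by DESeq2 size factors, upper quartile or library totals, the filter removed or set to CPM of 1 in 4 libraries, the hair score as covariate, the mouse number as a block, and each library left out. Each pair of groups was also fitted alone, without the other groups. Leaving out Control mouse 1 and EKO mouse 1 together was added after the data were seen. Deviations of same-numbered mice correlated between -0.541 and 0.61. Mice with different numbers were not compared, so these values cannot decide whether the numbers pair the mice. Transcript identity came from blastn 2.17.0.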

Additional observations from a re-analysis of the deposited data

Results flagged for a closer look

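Of 96 groups of 4 mice examined over 24 members, 4 held a mouse far from the other 3 of its group, and chance flags about 1 in 20 groups. All 4 were in EMdKO. Cd74 stood at 3987 CPM in EMdKO mouse 3, with the other mice between 2842 and 2972 CPM. In the same mouse the chaperone gene Calr stood at 516.7 CPM (others 286 to 323 CPM) and Pdia3 at 419.0 CPM (others 312.0 to 325.7 CPM). H2-Q10 stood at 11.99 CPM in EMdKO mouse 2, with the others between 1.33 and 2.00 CPM.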

How the results depend on the processing

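No member was called in EKO, MKO or EMdKO against Control, in EMdKO against EKO or MKO, or for the interaction, under any alternative run. In EKO against MKO, 2 of 38 members were called by DESeq2 (5.26%, against 4.61% of all targets), 6 by limma-voom (15.8%, against 11.7%) and 1, H2-Aa, without Control mouse 1 and EKO mouse 1 (2.63%, against 6.11%), at or near those shares, and between 0 and 1 when each library was left out. For LysM-Cre DESeq2 called 1 member, H2-Aa (0.73, adjusted p = 0.0292), and for Krt14-Cre the hair covariate called 1, Nlrc5. Leaving out a library called 0 members in the other contrasts. Fits on the compared groups alone called no member in any of the 6 pairs of groups. The mouse number as a replicate block called 0 members in all contrasts and turned no fold change examined. The cause of these shifts was not tested.

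Some small log2 fold changes changed sign. With limma-voom the Krt14-Cre values were -0.0576 for H2-Eb1 and -0.0319 for Ciita, and with library totals Ciita in EKO was 0.00325. With the hair covariate H2-K1 and Nlrc5 were -0.21 and -0.41 in MKO and -0.10 and -0.28 for LysM-Cre. Without Control mouse 1 and EKO mouse 1, MKO values were -0.0192 for H2-K1, -0.0306 for Nlrc5 and -0.072 for Cd74, EMdKO values -0.0655 for H2-Ab1 and -0.0971 for Cd74, LysM-Cre values -0.0138 for H2-K1 and -0.0263 for Nlrc5, and the Krt14-Cre value of Ciita -0.0304.

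With each library left out in turn, Cd74 ran from -0.0966 to 0.447 in EMdKO and -0.0719 to 0.472 in MKO, and H2-Ab1 from -0.0651 to 0.405 in EMdKO and -0.469 to 0.00127 in EKO. Ciita ran from -0.262 to 0.093 in EKO and -0.0797 to 0.0976 for Krt14-Cre, and H2-Eb1 from -0.00383 to 0.39 in EKO and -0.0197 to 0.177 for Krt14-Cre. H2-D1 ran from -0.142 to 0.124 in MKO and -0.152 to 7.54e-05 for LysM-Cre, H2-K1 from -0.0192 to 0.269 and Nlrc5 from -0.0306 to 0.461 in MKO. The members' median log2 fold change in MKO was 0.37, and 0.11 without Control mouse 1. That in EMdKO was 0.41, and 0.24 without Control mouse 1, and that for Krt14-Cre was 0.16, and 0.08 without Control mouse 1. For LysM-Cre it was 0.26, 0.17 without EKO mouse 1 and 0.04 with the hair covariate. No scaling moved the median of all targets by over 0.1. Low counts limit H2-Q10, H2-T-ps, H2-K2 and the 14 members without a test.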
